A study of Mus musculus with 6 samples.

Results

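Interferons are secreted signals of viral infection that switch on a shared set of defence genes. Type I interferons act through the kinases Jak1 and Tyk2 and a factor complex that contains Stat2 and Irf9 and binds the interferon-stimulated response element of its targets. Interferon gamma acts in part through Irf1 and is the classical inducer of the immunoproteasome, the peptide transporter and class I molecules, which together show cell peptides to T cells. Several of them, Isg15 among these, are known to be induced in the uterus during early pregnancy. The genes described here are 39 named members of this system, found by symbol in the platform annotation as the only gene of a probe set. The rule found 34 of them, among 8251 genes with a probe set of their own. Oasl2, Oas1a, Bst2, Ifi203 and Stat2 were not found this way, so no expression value is given for them. Each gene is represented by the probe set with the highest mean over the arrays.

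Total uterus RNA came from wildtype female mice of the 129/SvImJ strain, aged 10 to 16 weeks. All of them, controls included, had lost their ovaries 14 days before. Controls (0 h) got no injection, and the other 5 groups were given 0.2 mg of progesterone under the skin, dissolved in sesame oil (0.1 mL), and were killed at 6, 12, 15, 18 or 24 h. For every group 8 uterine horns, from 4 mice, were combined and hybridized to 1 Affymetrix array, so the 6 arrays are 6 groups of 1, and their number limits the precision. Mice given oil alone were not analysed here, so progesterone, oil, injection and the state of the single 0 h pool cannot be told apart in any difference from 0 h. Whole uterus mixes epithelium, stroma, muscle, vessels and leukocytes, and fewer cells of a type cannot be told apart from less RNA per cell.

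Levels are log2 values as deposited, with a shared lower limit of 5.39, and median levels per array lay between 7.12 and 7.22. For differences and tests, values under a floor of 6.60, the 40th percentile, were set to it, and 7731 probe sets above it on at least 2 arrays were analysed. Their median difference from 0 h lay between -0.05 and 0.03 at the 5 times. Of 10 uterine markers 9 exceeded the floor, and Wnt7a lay at the lower limit on all arrays. The 9 were above the floor on all arrays, and among them Pgr, Esr1, Hoxa10 and Hoxa11 read 7.94 to 11.2. The 0 h array stood apart from the rest, correlating with the progesterone arrays at 0.939 to 0.953 across probe sets, against 0.958 to 0.991 among these.

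Of the 34 members 25 were analysed: 10 of 15 of the type I response, all 4 transcription factors, 3 of 5 GTPases and 8 of 9 antigen processing genes. Mx1, Mx2 and the chemokine Cxcl10 lay at the lower limit on all arrays. The kinase Eif2ak2, the GTPases Ifi47 and Irgm1 and the ubiquitin ligase Trim30a never exceeded the floor. Ifit3 and Tap2 exceeded it at 0 h alone. Ifit3, a sister gene of Ifit1, read 6.94 at 0 h, 5.53 at 18 h and the lower limit at the other 4 times. Tap2, which forms the peptide transporter with Tap1, read 6.85 at 0 h and 6.28 to 6.58 later.

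To show the DNA these genes carry in front of their start sites, windows from 250 bases before to 50 after the start were read from RefSeq (GRCm38.p6) for the 34 of 39 named members that matched by symbol. These are not the same 34 as on the arrays: they include the 5 without a probe set of their own and lack Usp18, Mx1, Mx2, Ifi204 and Tap2. They were searched on both strands for the interferon-stimulated response element (GAAA, any 2 bases, GAAA) and for the interferon gamma activated site (TTC, any 3 bases, GAA), which reads the same on both strands. The response element was found for 18 members: 11 of 15 of the type I response, 4 of 5 GTPases, 1 of 5 transcription factors (Stat2), 1 of 8 antigen processing genes (B2m) and Cxcl10. By window it was in 19 of 44 (43.2%), against 3.44% of all 32851 windows of this length. The gamma site was found for 11 members, in 11 of 44 windows (25%) against 8.30% of all windows: 7 of 15 of the type I response, 2 of 5 transcription factors, 1 of 5 GTPases and 1 of 8 antigen processing genes (Psmb8). These genes were picked as interferon targets, so the excess is a description, and a match is not a measured binding site. Stretches of 5 type I and GTPase genes with the response element, and of Irf1 and Psmb8 with the gamma site, are shown because their values are described below; they do not stand for their roles. Capitals mark the matches, each stretch lies upstream of its start site and reads along the gene's strand, and TTTC is GAAA on the other strand.
Ifit1, chr19:34640765-34640833, plus strand: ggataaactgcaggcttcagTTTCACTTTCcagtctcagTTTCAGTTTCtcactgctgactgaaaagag
Rsad2, chr12:26456543-26456592, minus strand: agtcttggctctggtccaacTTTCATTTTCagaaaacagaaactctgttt
Isg15, chr4:156200855-156200916, minus strand: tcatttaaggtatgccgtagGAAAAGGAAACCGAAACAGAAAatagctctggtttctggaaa
Gbp2, chr3:142620584-142620633, plus strand: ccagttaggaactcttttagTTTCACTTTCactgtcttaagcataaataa
Gbp3, chr3:142559979-142560034, plus strand: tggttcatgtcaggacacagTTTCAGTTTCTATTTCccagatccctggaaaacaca
Irf1, chr11:53769904-53769952, plus strand: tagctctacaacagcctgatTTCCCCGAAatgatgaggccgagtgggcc
Psmb8, chr17:34198078-34198126, plus strand: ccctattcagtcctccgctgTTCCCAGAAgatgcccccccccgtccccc
Ifit1 carries 2 separate matches, Isg15 a run of 3 overlapping ones and Gbp3 a run of 2. The windows of Irf7, Irf9, Psmb9, Psmb10, Tap1, Tapbp, H2-K1, H2-D1, Ifi47 and Oasl2 held neither set of letters.

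The first comparison asked how the members stood on the 5 progesterone arrays as a group against the 0 h array, tested with limma across all analysed probe sets. Ifit1, Ifit2 and Rsad2, antiviral effectors of the type I response, fell. No member rose. Together 3 of 25 members fell, where 1.80% of all 7724 tested probe sets fell and 0.893% rose. At an unadjusted p under 0.05 13 members were lower and 0 higher, where 10.9% and 8.09% of all probe sets were. The 0 h array was the highest of the 6 for 27 of the 34 members as deposited, against 21.8% of all probe sets. By role these were 10 of 15 type I genes, 4 of 4 transcription factors, 5 of 5 GTPases and 8 of 9 antigen processing genes. Members under the floor or near it have no firm order; among the 25 analysed it was 22: 8 of 10, 4 of 4, 3 of 3 and 7 of 8. The lead was 0.0052 for B2m and 3.3e-05 for Igtp, so neither can be called a difference. Of the 25 analysed members 22 were lower than at 0 h at all 5 times, against 27.2% of probe sets. All of these counts rest on the same single 0 h array. The members were chosen with earlier results of these data known, so the counts are a description and not an independent test.

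Ifit1, which binds viral RNA lacking the host cap mark, read 7.82 at 0 h and 6.02, 5.84, 5.89, 6.75 and 6.44 at 6, 12, 15, 18 and 24 h. It was highest at 0 h by 1.07 and least low at 18 h. It fell by 1.19 ± 0.11 (SE; mean of 5 progesterone arrays minus 0 h, limma adjusted p = 0.0026), and 4 of the 5 progesterone values were at the floor, so this is a lower limit of its size. Without the floor the difference was -1.63 ± 0.34 (adjusted p = 0.041). Floored values are equal, which narrows the spread the test uses.

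Ifit2, another RNA-binding protein of this family, read 7.59 at 0 h and 6.70, 6.53, 6.51, 6.63 and 6.73 at the 5 times. The progesterone arrays lay within 0.22 of each other and all of them lay well below 0 h. It fell by 0.94 ± 0.10 (adjusted p = 0.0071, with 2 arrays at the floor), or by 0.97 ± 0.16 without the floor (adjusted p = 0.024). Without each progesterone array in turn, Ifit1 and Ifit2 stayed lower than at 0 h. These runs kept the single 0 h array and the floored values, so they do not test the influence of either.

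Rsad2, the antiviral enzyme viperin, read 7.12 at 0 h and 6.35, 6.68, 6.53, 6.68 and 6.52 later. It fell by 0.49 ± 0.09 (adjusted p = 0.039), but not without the floor (adjusted p = 0.14) and not without 12, 15, 18 or 24 h (0.097, 0.1, 0.077 and 0.065).

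Ifih1, the sensor of double-stranded RNA known as MDA5, read 7.50 at 0 h and 6.63, 6.55, 6.41, 6.96 and 6.90 later, with a difference of -0.76 ± 0.16 (adjusted p = 0.055). It had the third lowest median of the type I genes and did not pass the test. Isg15, a ubiquitin-like protein attached to other proteins, read 8.50 at 0 h and 7.65, 7.86, 7.84, 8.33 and 8.08 later. Its 18 h array came within 0.16 of 0 h, and its difference was -0.54 ± 0.24 (adjusted p = 0.26). Usp18, the protease that removes Isg15, stood at a median of -0.44, and Ifi204, a DNA-binding protein whose probe set may also read close relatives, at -0.43 (adjusted p = 0.3 and 0.16).

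The type I genes with the highest medians were Ifi35, Ifitm3 and Adar. Ifi35, a leucine zipper protein, was the exception in direction, with 7.97 at 0 h and 8.09, 8.17, 8.52, 8.28 and 8.30 later. All 5 progesterone arrays lay above 0 h, by 0.31 ± 0.17 on average (adjusted p = 0.4). Ifitm3, a membrane protein that blocks virus entry, read 12.3 at 0 h and 11.8, 12.0, 11.9, 12.1 and 12.1 later, a difference of -0.28 ± 0.14 (adjusted p = 0.35). Adar, an enzyme that edits adenosine in RNA, read 7.06 at 0 h and 6.51, 6.59, 6.77, 7.19 and 6.78 later. Its 18 h array was above 0 h and the groups overlapped (-0.27 ± 0.21, adjusted p = 0.55).

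**Figure D1:**
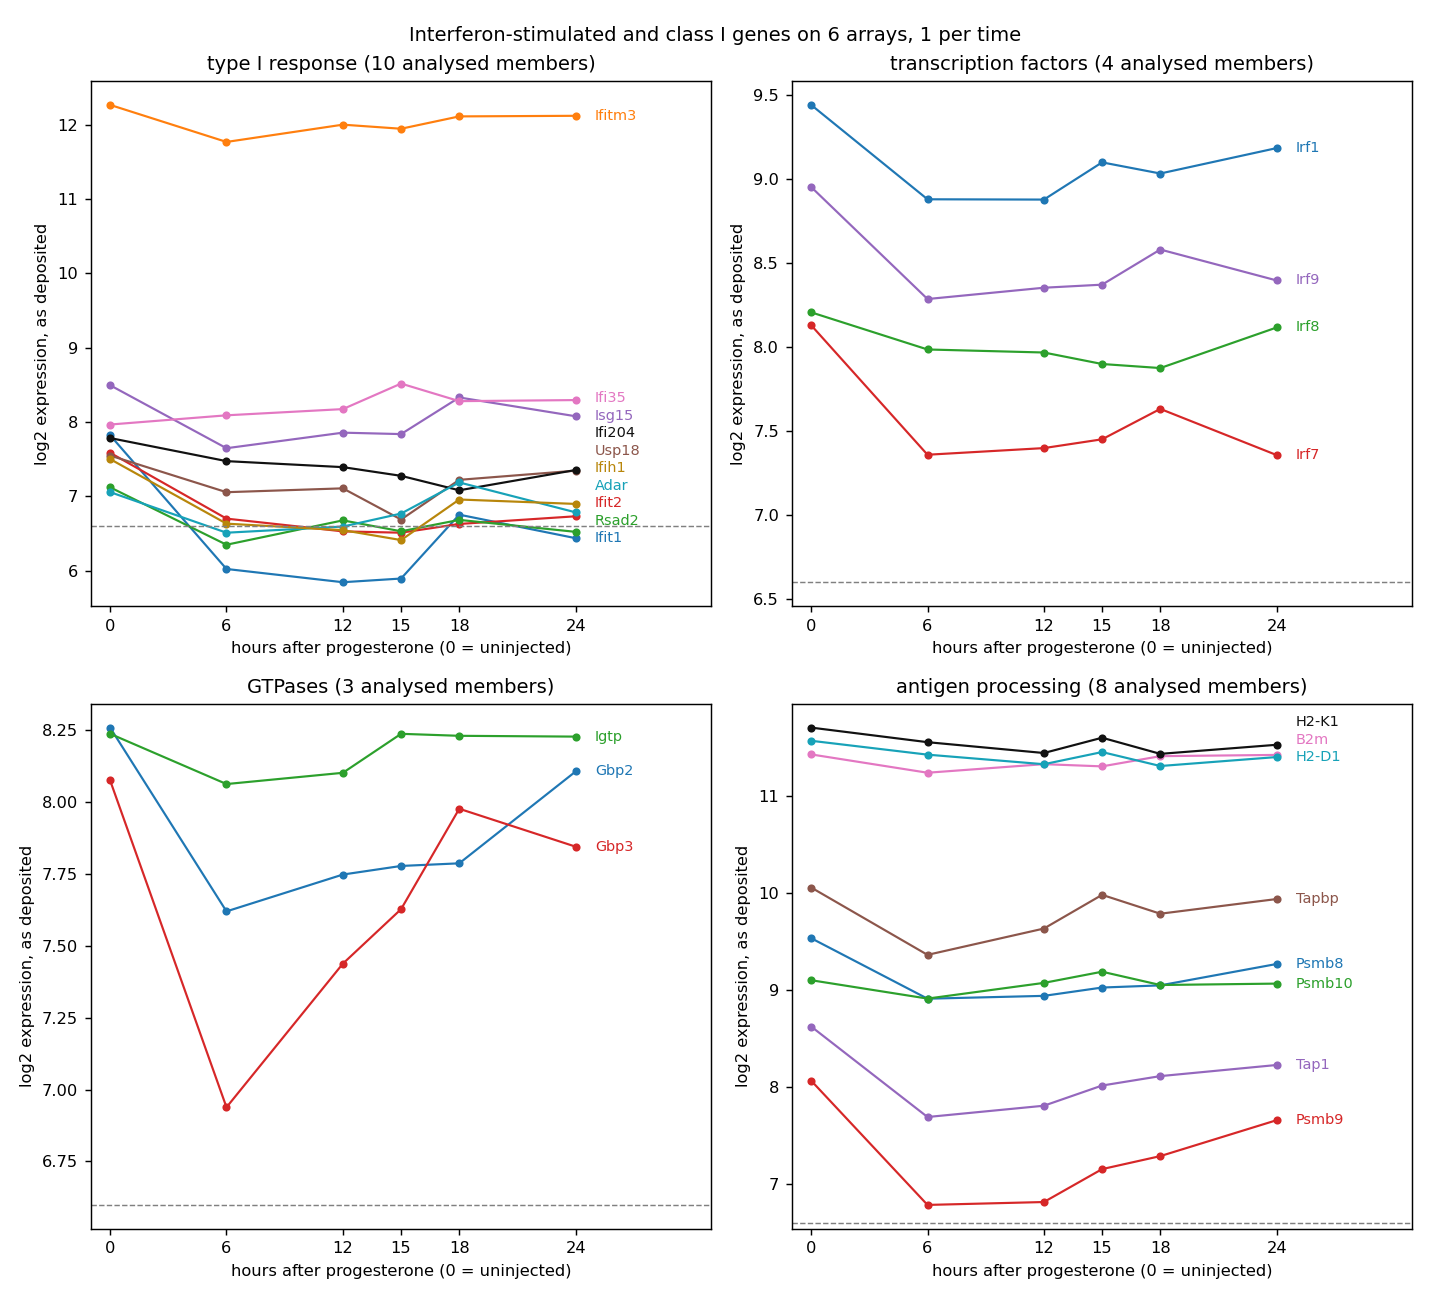
Deposited log2 expression (y axis) of the 25 analysed members against hours after progesterone (x axis), 1 array per point, in 4 panels by role; the dashed line is the floor of 6.60. Ifit1 and Ifit2 were at least 0.85 lower than at 0 h on every progesterone array, and Gbp3, Psmb9 and Tap1 were lowest at 6 h.

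Among the transcription factors, Irf7, the amplifier of type I interferon production, read 8.13 at 0 h and 7.36, 7.40, 7.45, 7.63 and 7.36 later. Each progesterone array was below 0 h, by 0.50 to 0.77, and the difference of -0.69 ± 0.14 narrowly missed the threshold (adjusted p = 0.051). It passed in 2 of 6 other settings (without the floor and without an intensity trend, adjusted p = 0.045 and 0.047). With a progesterone array left out it passed in 1 of 5 runs (without 6 h, adjusted p = 0.045). In the remaining settings and runs it did not pass, with adjusted p up to 0.15. A second probe set of Irf7 was lower by a median of -0.35.

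Irf9, a DNA-binding partner of Stat2, read 8.95 at 0 h and 8.28, 8.35, 8.37, 8.58 and 8.39 later (-0.56 ± 0.15, adjusted p = 0.093). Irf1, the factor most tied to interferon gamma, read 9.44 at 0 h and 8.88, 8.88, 9.10, 9.03 and 9.18 later (-0.43 ± 0.15, adjusted p = 0.19). Irf8, a factor of myeloid cells, read 8.20 at 0 h and 7.98, 7.97, 7.90, 7.87 and 8.11 later (-0.24 ± 0.14, adjusted p = 0.42). All 4 factors were lower than at 0 h on every progesterone array, and 0 of 4 passed.

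Among the GTPases, which act in defence against intracellular pathogens, Gbp3 differed most from 0 h at 6 h and Igtp least. Gbp3, a guanylate-binding protein, read 8.07 at 0 h and 6.94, 7.44, 7.63, 7.98 and 7.84 later. It was 2-fold lower at 6 h, by -1.14, and back within 0.10 at 18 h, so that the group difference of -0.51 ± 0.34 did not pass (adjusted p = 0.47). Gbp2, its relative, read 8.26 at 0 h and 7.62, 7.75, 7.78, 7.79 and 8.11 later (-0.45 ± 0.18, adjusted p = 0.24). Igtp, an immunity-related GTPase, read 8.24 at 0 h and 8.06, 8.10, 8.24, 8.23 and 8.23 later (-0.07 ± 0.14, adjusted p = 0.85). Its last 3 arrays equalled 0 h to within 0.01. Ifi47 and Irgm1, under the floor throughout, were at 5.65 and 5.71 at 0 h and at most 5.39 and 5.53 later.

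Among antigen processing genes, Psmb9, Tap1 and Psmb8 stood lowest. They lie side by side with Tap2 on chromosome 17, in the order Psmb9, Tap1, Psmb8, Tap2 with no other protein-coding gene between them in RefSeq. Psmb9, a catalytic immunoproteasome subunit, read 8.07 at 0 h and 6.79, 6.82, 7.15, 7.29 and 7.66 at the 5 times. It was 2-fold lower at 6 and 12 h, by -1.28 and -1.25, and -0.41 remained at 24 h. Tap1, the partner of Tap2, read 8.63 at 0 h and 7.69, 7.81, 8.02, 8.11 and 8.23 later. Psmb8, a second catalytic subunit, read 9.54 at 0 h and 8.91, 8.94, 9.03, 9.05 and 9.27 later. All 3 had 0 h as the highest array and 6 h as the lowest, with each later array above the one before it. Their group differences of -0.93 ± 0.30, -0.65 ± 0.21 and -0.50 ± 0.16 did not pass (adjusted p = 0.15, 0.14 and 0.14).

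The genes of the class I molecule itself did not pass. B2m, its light chain, read 11.4 at 0 h and 11.2, 11.3, 11.3, 11.4 and 11.4 later (-0.09 ± 0.11, adjusted p = 0.74). H2-D1, a heavy chain, read 11.6 at 0 h and 11.4, 11.3, 11.5, 11.3 and 11.4 later (-0.19 ± 0.11, adjusted p = 0.4), and H2-K1 had a median of -0.18. Heavy chain genes are near copies of each other, so their probe sets may share signal, and further probe sets had medians of 0.06 and -0.33 for H2-K1 and of -0.30 for H2-D1. Tapbp, which loads peptides onto class I, was lower by -0.69 at 6 h and by -0.12 at 24 h. Its 2 other probe sets had medians of -0.20 and -0.12. Further probe sets of Tap1, Ifi204 and Trim30a, all under the floor, had medians of -0.06, 0.04 and 0 as deposited. Psmb10, the remaining immunoproteasome subunit, read 9.10 at 0 h and 8.91, 9.08, 9.19, 9.05 and 9.07 later, on both sides of 0 h (-0.04 ± 0.14, adjusted p = 0.9).

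**Figure D2:**
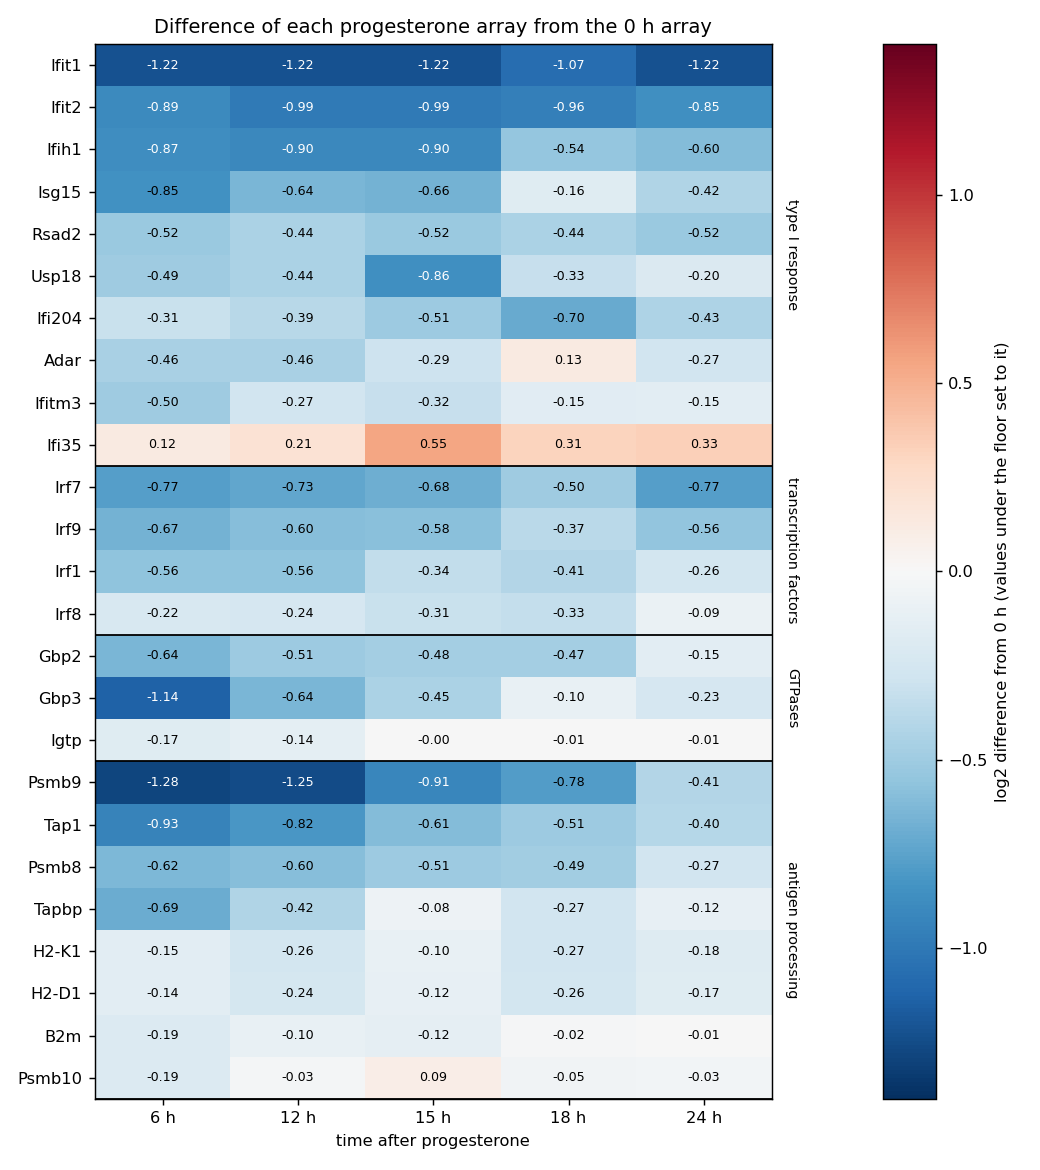
Log2 difference of each progesterone array (columns) from the 0 h array for the 25 analysed members (rows, ordered within role by their median), values under the floor set to it; blue is lower and red higher than 0 h. Psmb9 went from -1.28 at 6 h to -0.41 at 24 h and Gbp3 from -1.14 to -0.23; the equal values of Ifit1 at 4 times are set by the floor.

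The second comparison took each time by itself, as a description with no test. At 6 h Gbp3, Psmb9 and Ifit1 were at least 2-fold lower than at 0 h, 3 of 25 members against 1.10% of all probe sets, and 24 of 25 were lower by any size against 58.2%. At 12, 15, 18 and 24 h 24, 23, 23 and 24 of 25 were lower, against 44.8%, 45.5%, 55.6% and 48.6%. At 12 h Psmb9 and Ifit1 were 2-fold lower (1.75% of all probe sets), and at 15, 18 and 24 h Ifit1 was the 1 such member (1.58%, 1.80% and 1.39%). The floor sets this count: as deposited, Ifit2 was also over 2-fold lower at 12 and 15 h (-1.06 and -1.08) and Ifih1 at 15 h (-1.09). No member was 2-fold higher at any time, where 1.41%, 1.83%, 2.05%, 1.14% and 1.06% of all probe sets were at the 5 times. At 1.5-fold, 12, 10, 8, 4 and 4 members were lower at the 5 times, against 5.82%, 5.98%, 5.71%, 6.83% and 4.95%. As deposited, 6 h was the lowest of the progesterone arrays for 15 of 34 members, against 29.5% of all probe sets: 5 type I genes, 1 factor, 3 GTPases and 6 antigen processing genes. At 24 h 19 of 25 members were above 6 h, against 57.3%. This is not particular to the members. It was also seen for 7 of 7 analysed pan-leukocyte markers and 3 of 3 constitutive catalytic proteasome subunits, both described below. For epithelial and class II antigen presenting cell markers it was 2 of 10 and 1 of 6.

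The median difference of the type I genes was -0.51, -0.45, -0.59, -0.38 and -0.42 at 6, 12, 15, 18 and 24 h. That of the transcription factors was -0.61, -0.58, -0.46, -0.39 and -0.41. Both were nearest to 0 h at 18 h. The GTPases stood at -0.64, -0.51, -0.45, -0.10 and -0.15, and the antigen processing genes at -0.41, -0.34, -0.12, -0.27 and -0.17. The GTPases were nearest to 0 h at 18 h and the antigen processing genes at 15 h. Whether the lists differ in time course was not tested.

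**Figure D3:**
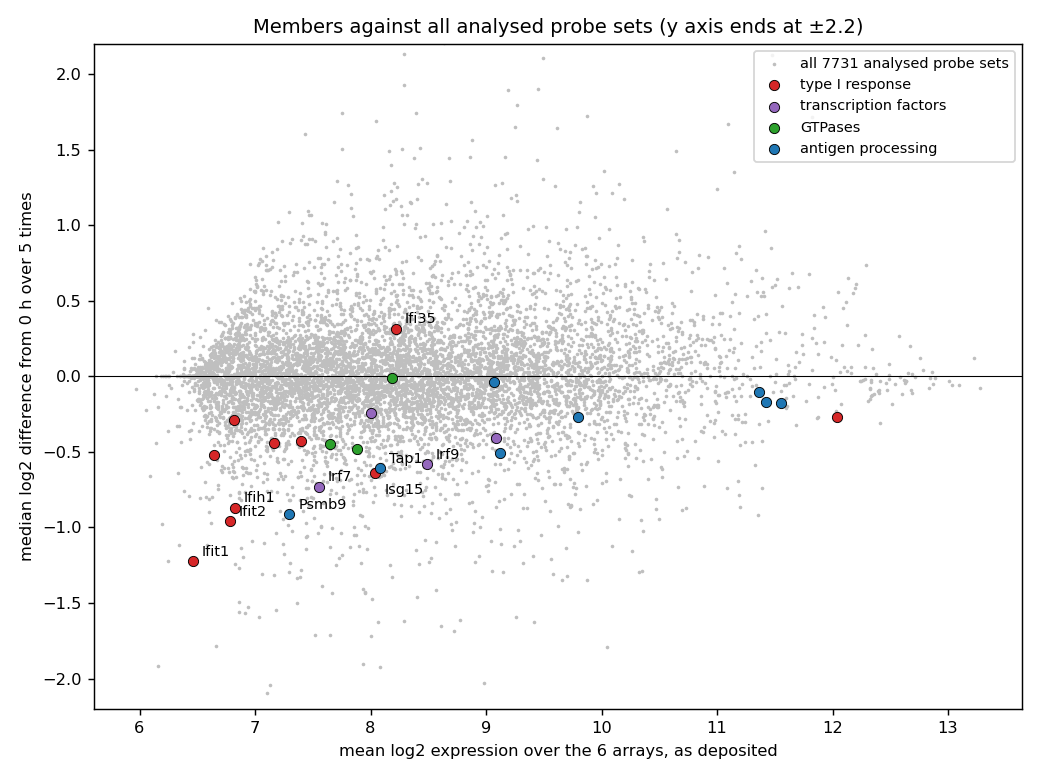
Median log2 difference from 0 h over the 5 progesterone arrays (y axis) against mean deposited log2 expression (x axis) for the 25 analysed members by role (coloured) and all 7731 analysed probe sets (grey); 14 probe sets lie beyond the y axis. Apart from Ifi35 the members lay below 0, between -1.22 and -0.01, while the median of all probe sets was 0.

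The third comparison left out the 0 h array and asked whether members changed between progesterone arrays. Its trend is the leave-one-out run of the trend over hours without 0 h, and was not among the main fits. In a linear trend over 6 to 24 h 22 of 25 members had slopes above 0, against 53.5% of all probe sets. With limma on these 5 arrays, Psmb9 rose by 1.24 ± 0.22 per 24 h (adjusted p = 0.037), 1 of 25 members where 1.02% of 7731 probe sets rose and 0.88% fell. Gbp3 had a slope of 1.30 ± 0.29 and Tap1 of 0.77 ± 0.20 per 24 h (adjusted p = 0.066 and 0.086), followed by Tapbp at 0.75 ± 0.24 and Isg15 at 0.71 ± 0.29 (adjusted p = 0.13 and 0.2). Ifit1, Ifit2, Rsad2 and Irf7 had slopes of 0.06 ± 0.17, 0.05 ± 0.17, 0.0026 ± 0.16 and 0.09 ± 0.23. Of the values behind these slopes the floor sets 4 of 5 for Ifit1, 3 of 5 for Rsad2 and 2 of 5 for Ifit2, so they do not show a flat course. As deposited, Ifit1 was higher by 0.41 at 24 h than at 6 h, Rsad2 by 0.17 and Ifit2 by 0.03.

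At an unadjusted p under 0.05, 2 of 10 type I genes, 0 of 4 factors, 2 of 3 GTPases and 4 of 8 antigen processing genes had a rising slope and no member a falling one, where 11.6% and 9.87% of all probe sets did. With the 0 h array in the trend, 0 members passed in either direction where 0.194% of probe sets rose and 0.116% fell. At an unadjusted p under 0.05, 3 were lower and 0 higher in it, where 7.81% and 8.41% were. Set against the 6 h array alone, the mean of the 4 later arrays gave 0 members in either direction by limma (0.0777% and 0.233% of probe sets rose and fell), with 3 higher (Ifitm3, Gbp3 and Tapbp) and 0 lower at an unadjusted p under 0.05, where 14.1% and 6.73% were.

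The immunoproteasome subunits Psmb8, Psmb9 and Psmb10 replace the constitutive catalytic subunits Psmb5, Psmb6 and Psmb7 in the same particle. The constitutive subunits were on the other side of 0 h. Psmb5 read 8.69 at 0 h and 9.24, 9.60, 9.67, 9.45 and 9.51 later (0.80 ± 0.17, adjusted p = 0.054). Psmb6 read 9.28 at 0 h and 9.57, 9.92, 10.2, 9.82 and 9.94 later (0.62 ± 0.22, adjusted p = 0.18). Psmb7 lay above 0 h on 4 of the 5 arrays, with a median of 0.26. None of the 6 catalytic subunits passed against 0 h, and the difference between the 2 sets was not tested.

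**Figure D4:**
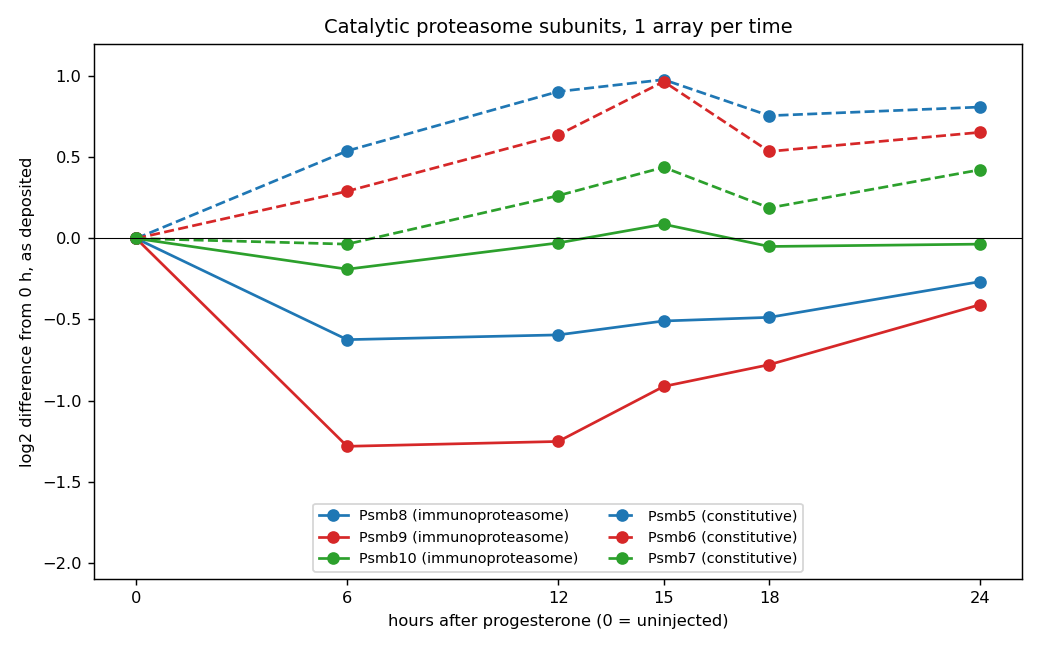
Log2 difference from 0 h, as deposited (y axis), of the 3 immunoproteasome subunits (solid lines) and the 3 constitutive subunits they replace (dashed lines, same colour) against hours after progesterone (x axis), 1 array per point. Psmb8 and Psmb9 lay below 0 and Psmb5 and Psmb6 above 0 at all 5 times; Psmb10 lay between -0.19 and 0.09.

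The rest of the pathway was read from lists. Of 16 interferon ligands and receptors 13 were found, and Ifnb1, Ifng, Ifna5 and Ifna9 lay at the lower limit on all arrays. Of the 7 analysed, Il10rb, a receptor chain shared by interleukin 10 and type III interferon, fell by 0.66 ± 0.12 (adjusted p = 0.031), with 9.98 at 0 h and 9.26 to 9.39 later. It did not pass without 12, 15, 18 or 24 h (adjusted p = 0.11, 0.09, 0.083 and 0.057). Ifna2 followed, with a median of -0.26 on a probe set that may read other interferon alpha genes. Of 10 analysed signalling genes and brakes none passed, and the largest medians were those of Socs1, a feedback inhibitor, at 0.33 and of Jak2 at -0.32.

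Of 4 analysed sensors and adaptors, Myd88, the adaptor of most Toll-like receptors, rose by 1.93 ± 0.38 (adjusted p = 0.041). It read 7.88 at 0 h and 10.3, 10.1, 9.99, 9.14 and 9.56 later, and did not pass without 12, 15 or 24 h (adjusted p = 0.14, 0.12 and 0.078). Of 23 other interferon-stimulated genes analysed none passed. A median below 0 was found for 19 of them, against 49.5% of all analysed probe sets, and the list median was -0.20. The largest were Gbp7, a guanylate-binding protein, at -0.75 and Casp1, the protease of inflammasomes, at -0.68 (adjusted p = 0.092 and 0.26). Of 6 other class I processing genes none passed; Pdia3, a chaperone of class I folding, had a median of 0.54 and H2-Q4 of -0.54.

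Markers of the cell types in whole uterus differed from 0 h in both directions. All 8 pan-leukocyte markers were found, and their summed linear signal was 3132 at 0 h and 2272 to 2677 on the progesterone arrays. Of these, 7 were analysed and all 7 had a median below 0, as did 49.5% of all analysed probe sets. The list median was -0.31, and Ptprc (CD45) stayed under the floor at 5.80 or less. Class II antigen presenting cell markers summed to 5953 at 0 h and 3794 to 4639 later, with all 7 found and a list median of -0.44 over the 6 analysed. The 10 macrophage markers summed to 4224 at 0 h and 3745 to 4243 later, which overlap, with Adgre1 and Fcgr3 at the lower limit. Of 7 T cell markers found, 2 exceeded the floor (Cd4 and Thy1), and the 7 summed to 1865 at 0 h and 1374 to 1640 later. Thy1 had the highest level of them, at 10.0 at 0 h, and a median of -0.52, against -0.11 for Cd4. Under the floor, Cd3d and Cd247 had medians of 0.32 and 0.31 as deposited, and Cd3e of -0.28. Cd3g and Cd8a were at the lower limit on all arrays (Cd8a has no value at 6 h). Of 7 natural killer markers found, 2 exceeded the floor (Prf1 and Il2rb) and Ncr1 was at the lower limit. They summed to 660 at 0 h and 563 to 654 later. The 5 B cell markers found summed to 1730 at 0 h and 1432 to 1573 later. Of 4 plasmacytoid dendritic cell markers 2 were found, and these summed to 1270 at 0 h and 996 to 1177 later. They were Tcf4, with a median of -0.37, and Ly6d, with -0.05. The 7 neutrophil markers overlapped, at 827 and 709 to 914. Epithelial markers, all 10 found, summed to 10604 at 0 h and 7298 to 9159 later, with a list median of -0.65. The 7 endothelial markers summed to 3130 at 0 h and 2176 to 2458 later, with Cldn5 at a median of -1.29 but a list median of -0.10. Stromal markers summed to 13941 at 0 h and 13494 to 19419 later, with a list median of 0.45. Smooth muscle markers summed to 16312 at 0 h and 15175 to 18924 later. Actg2 has no value at 15, 18 and 24 h, so the sums at these times lack it and are too low. The smooth muscle list median was 0.21, with 0 of 7 medians below 0, against 49.5% of all analysed probe sets. The part of these cells in the members' differences was not tested.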

How the data were processed

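Per the labels, total RNA was prepared, labelled and hybridized as Affymetrix recommends. The deposited table holds log2 expression per probe set, a scale read from its values; how the values were computed and normalized is, in the sources used here, not given. Of 12487 probe sets 65 controls were left out, and 121 missing values stayed missing. The 2% trimmed means per array lay between -4.10% and 3.42% of their median, so no scaling was added. Values under the 40th percentile (6.60) were set to it, and probe sets above it on at least 2 of 6 arrays were kept. Flooring understates differences of weak genes. The platform annotation gave 10833 probe sets 1 symbol, 396 several and 1193 none.

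limma 3.58.1 (R 4.3.3; lmFit, eBayes, prior variance following intensity) set all 5 progesterone arrays against 0 h (4 residual degrees of freedom), fitted a trend over hours, and set the later 4 arrays against 6 h (3 residual degrees of freedom), each over all analysed probe sets with Benjamini-Hochberg adjustment. A gene is said to rise or fall where its adjusted p was under 0.05. The fits were tested on simulated data. Spread is that between times, since no time has replicates; a single time has no test. Named were members that passed and the 3 highest and 3 lowest medians per role, and for other lists those that passed or the 2 largest medians; further members are given beside them. Members, lists and motifs were chosen with earlier results of these data known, so member counts set against all probe sets are a description. Alternatives in scaling, floor, filter, variance model, probe set, fold and arrays were computed.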

Additional observations from a re-analysis of the deposited data

How the results depend on the processing

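The members that fell against 0 h numbered 3 by limma as reported, 0 of 16 with the floor at the 60th percentile, under which Ifit1, Ifit2 and Rsad2 were not tested, and 5 of 34 with no filter on expression, where Ifit3 and Tap2 were added on floored values. With one array left out the count was 2 to 4. In the trend over hours, members that rose went from 0 to 1 without the 0 h array: Psmb9 changed sign, from -0.15 to 1.24 per 24 h, with -0.84 to 1.24 over all arrays left out in turn. Without 0 h, 79 of all probe sets rose. The list medians over the 5 times were -0.48, -0.49, -0.45 and -0.22 for type I genes, transcription factors, GTPases and antigen processing genes, and stayed below 0 with quantile normalization and with columns centred on their median. For the type I genes the median was -0.59 with the floor at the 20th percentile, which is the deposited lower limit, and -0.27 with the floor at the 60th, each over other members. With 18 and 24 h in place of 0 h as reference, the 6 to 15 h arrays gave -0.14, -0.12 and -0.20 for type I genes, factors and GTPases. For values with no test, a move was judged against the SD of the list median over the 5 times. By it the median of the antigen processing genes, not given here, did not move with 18 and 24 h as reference. The cause of these changes was not tested beyond the members each setting admits. No paired analysis was possible because each group has 1 array. Signals near the lower limit carry no order, which limits Ifit3, Ifi47, Irgm1, Trim30a, Mx1, Mx2, Eif2ak2 and Cxcl10.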
